A study of Mus musculus with 14 samples.

Results

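The surface of the newborn mouse eye, meaning the epithelia of cornea, conjunctiva and lid skin, is built under a small group of transcription factors, and 8 of them were followed across the deletion of either of 2 chromatin remodelling ATPases. They are 8 of the 12393 genes that the array reads with a probe set of their own, namely Ehf, Elf3, Tfcp2l1, Grhl1, Trp63, Klf4, Klf5 and Ovol1. They were chosen by name, and every probe set that the array annotation assigns to 1 of these genes alone was used, which gave 17 probe sets of the 22626 that were tested. Ehf, Tfcp2l1 and Trp63 had 3 probe sets each, Klf4, Klf5 and Ovol1 had 2 each, and Elf3 and Grhl1 had 1 each. All 17 were kept whatever their level. The choice followed gene names and used no cutoff on the values, but it was made with earlier results of these data known.

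Whole eyes taken at postnatal day 1 gave total RNA for 14 single-colour Affymetrix arrays, with 50 ng amplified and biotin-labelled for each. The Brg1 experiment held 3 conditional knockout (cKO) and 3 wildtype samples on a mixed genetic background. The Snf2h experiment held 4 lens-conditional Snf2h knockout and 4 wildtype samples on the C57BL/6 background. Brg1, encoded by Smarca4, is the ATPase of SWI/SNF complexes, and Snf2h, encoded by Smarca5, is the ATPase of ISWI complexes. The labels name neither the Cre driver of either knockout nor the cells in which Brg1 was deleted. Strain, experiment and possible array batch go together and cannot be told apart, so the Brg1 cKO arrays were compared with Brg1 wildtype arrays and the Snf2h cKO arrays with Snf2h wildtype arrays, with none shared. The submitters mention 4 biological replicate experiments, and nothing says from which animals the Brg1 samples came, so p-values measure the spread between these samples.

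These factors sit at different steps of the life of a stratified epithelium. Trp63 is the master factor of its basal layer and has several promoters and splice forms. Ehf and Elf3 are ETS factors found mainly in epithelia, Grhl1 and Tfcp2l1 belong to the grainyhead and CP2 family, and grainyhead factors control junction and barrier genes. Klf4 and Klf5 are zinc finger factors of the Krüppel-like family needed for a normal mouse cornea, and Ovol1 is a zinc finger factor that acts as keratinocytes leave the basal layer. Most of them work in skin as well as in the eye. In an extract of a whole eye, fewer epithelial cells and less RNA per epithelial cell cannot be told apart.

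Several facts of the arrays touch the values below. The median intensity of an array lay between 100.8 and 113.6. Snf2h cKO replicates 1 and 2 were nearly alike. The SD of their log2 difference over all probe sets was 0.22, against 0.42 to 0.73 for the other pairs within a group. Snf2h changes of Ehf 1419475_a_at, Trp63 1418158_at and Klf4 1417394_at are therefore also given with this pair averaged. The other Snf2h changes and counts below treat the pair as 2 samples. Snf2h wildtype replicate 3 stood apart, with a mean log2 level of 7.66 over 16 markers of cornified skin and hair follicle, against 4.39 to 5.10 in the other wildtype arrays of that experiment. The same array had a Gapdh 3′ minus 5′ difference of 4.47, against 1.09 to 1.46 in the other Snf2h wildtype arrays. In the Snf2h cKO arrays this difference was 0.77 to 0.99, below every wildtype array of that experiment. For the actin control it was 1.34 to 1.83 in Snf2h cKO and 1.44 to 3.08 in Snf2h wildtype arrays, with overlap. The part of RNA quality in the Snf2h changes was not tested. The deleted genes did not pass the test in whole eyes. Smarca4 1426805_at was at 59.8% of wildtype in Brg1 cKO eyes (adjusted p = 0.579, limma) and Smarca5 1424205_at in Snf2h cKO eyes kept 70.9% of its wildtype level (adjusted p = 0.192, limma), and other probe sets of both genes lay nearer to wildtype. Levels below are log2 intensities, and a fold or a log2 change is knockout over wildtype. The median probe set had a mean level of 6.77, and without detection calls the folds of probe sets far below that are compressed by an unknown amount.

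In Brg1 cKO eyes 2 of the 8 genes fell. Ehf fell on all 3 of its probe sets, by 12.3-fold, 6.55-fold and 3.75-fold, and Tfcp2l1 fell 6.66-fold on 1 of its 3. Of the 17 probe sets, 4 fell and 0 rose at an adjusted p under 0.05 (limma, Benjamini-Hochberg over all 22626 probe sets), where 0.243% of all probe sets fell and 0.349% rose. The change was negative in 13 of the 17, beside 51.6% of all probe sets. In 7 of the 17, all 3 knockout arrays lay below all 3 wildtype arrays, as they did in 6.37% of all probe sets. The median change of the 17 was −0.60, beside −0.01 over all probe sets. At an unadjusted p under 0.05 there were 7 lower and 0 higher of the 17, beside 3.73% and 4.33% of all probe sets.

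In Snf2h cKO eyes none of the 8 genes passed. Of the 17 probe sets 0 rose and 0 fell by limma, beside 0.00884% and 0.00442% of all probe sets, and 5 were lower and 0 higher at an unadjusted p under 0.05, beside 7.89% and 9.8% of all probe sets. In 4 of the 17, all 4 knockout arrays lay below all 4 wildtype arrays, beside 4.22% of all probe sets. The change was negative in 14 of the 17, beside 54.7% of all probe sets, and its median was −0.42, beside −0.04 over all probe sets.

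**Figure D1:**
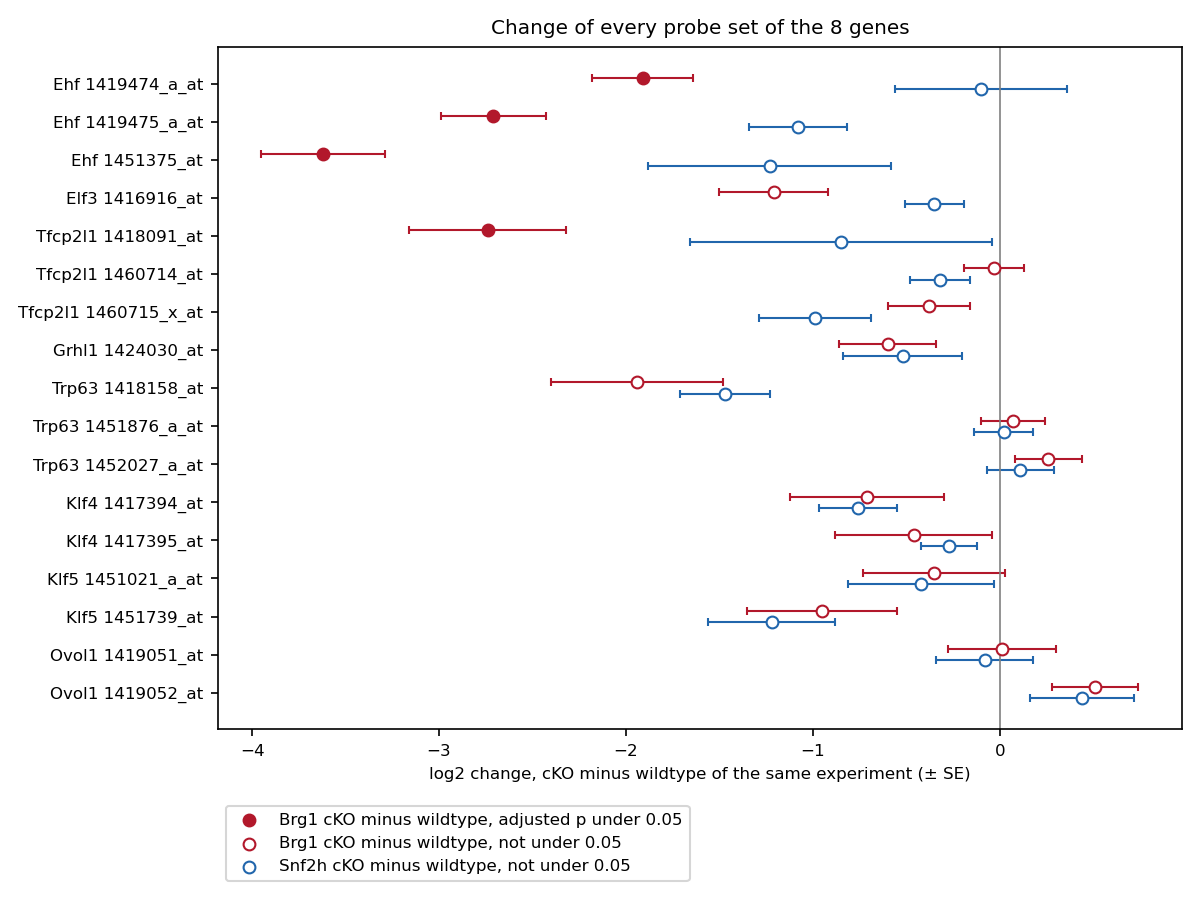
Log2 change of each of the 17 probe sets (x axis, knockout minus wildtype of the same experiment, with standard error) for the Brg1 (red) and Snf2h (blue) experiments, where filled points have an adjusted p under 0.05. The 4 filled points are the 3 probe sets of Ehf and 1418091_at of Tfcp2l1 in the Brg1 experiment, between −3.62 and −1.91.

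Ehf, an ETS factor of the differentiating layers of many epithelia, carried the largest difference of the 8 genes. Its brightest probe set, 1451375_at, read 4.94, 5.37 and 5.96 in Brg1 cKO eyes, against 9.58, 8.90 and 8.66 in Brg1 wildtype eyes. All 3 knockout arrays were low, and the highest of them lay 2.70 below the lowest wildtype array. The change was −3.62 ± 0.33 (SE, adjusted p = 0.00791 by limma, n = 3 each), which leaves 8.12% of the wildtype level. Leaving out any 1 array kept the adjusted p between 0.0132 and 0.0497.

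The other Ehf probe sets gave the same order. On 1419475_a_at the levels were 2.25, 3.01 and 2.77 in Brg1 cKO eyes, against 5.82, 5.01 and 5.33 in wildtype eyes (−2.71 ± 0.28 SE, adjusted p = 0.013 by limma). On 1419474_a_at they were 4.09, 4.73 and 4.38 in Brg1 cKO eyes, against 6.75, 6.23 and 5.94 in wildtype eyes (−1.91 ± 0.27 SE, adjusted p = 0.0361 by limma). Neither pair of groups overlapped. The suffix _a_at marks a probe set shared by several transcripts of 1 gene. Both of these sets were dim in the knockout, and their calls depended on single arrays. That of 1419475_a_at was lost without Brg1 cKO replicate 3, wildtype replicate 1 or wildtype replicate 3 (adjusted p up to 0.0735), and that of 1419474_a_at without Brg1 cKO replicate 1 or 3 or any 1 wildtype array (up to 0.162). With 32 added to every intensity before the logarithm, which damps dim values, none of the 3 passed, with adjusted p of 0.0929 (1451375_at), 0.15 (1419475_a_at) and 0.196 (1419474_a_at).

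In the Snf2h experiment the same gene split the knockout arrays. Ehf 1451375_at read 6.97, 6.95, 5.08 and 4.58 in Snf2h cKO eyes, against 7.50, 5.69, 8.15 and 7.18 in Snf2h wildtype eyes. The near-identical knockout replicates 1 and 2 were above wildtype replicate 2, the lowest of its group, and below the other wildtype arrays. Knockout replicates 3 and 4 were below every wildtype array. The change was −1.23 ± 0.65 (SE, adjusted p = 0.353 by limma, n = 4 each), between −1.71 and −0.80 when 1 array was left out, and −0.27 with array weights (adjusted p = 0.822). On 1419475_a_at all 4 knockout arrays (3.62, 3.07, 3.10 and 2.50) lay below all 4 wildtype arrays (4.28, 3.89, 3.82 and 4.63), with a change of −1.08 ± 0.26 that did not pass (adjusted p = 0.122 by limma, 0.272 with the near-identical pair averaged). On 1419474_a_at the change was −0.10 ± 0.46 and the groups overlapped.

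**Figure D2:**
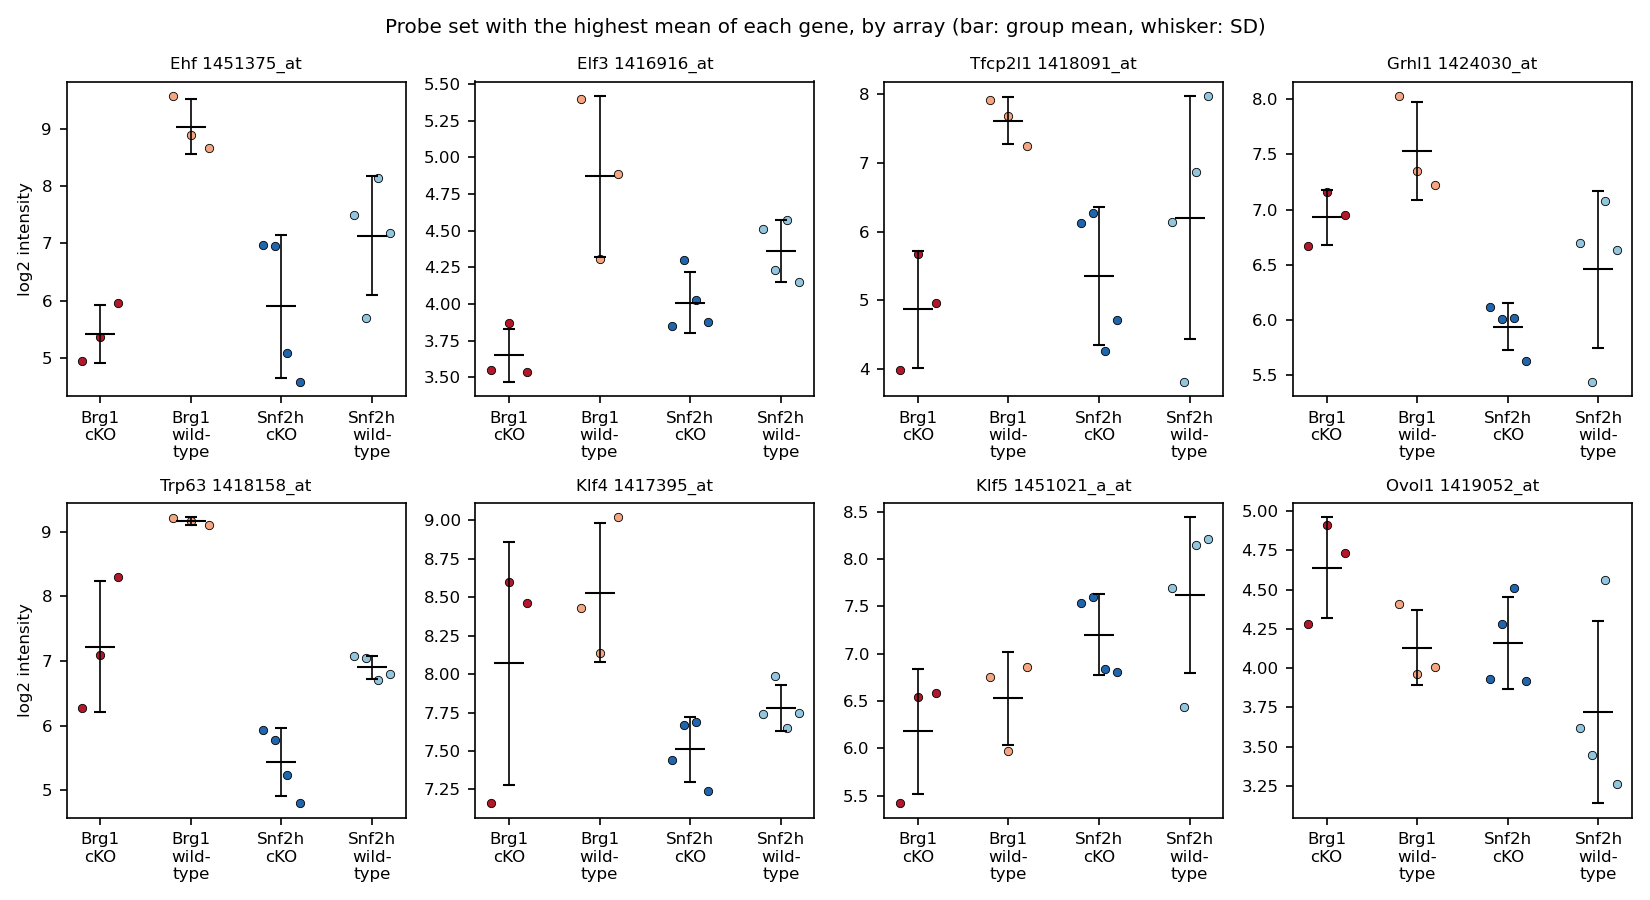
Log2 intensity (y axis, a separate scale in each panel) of the brightest probe set of each gene, with 1 point per array, the group mean as a bar and the SD as a whisker, in Brg1 cKO, Brg1 wildtype, Snf2h cKO and Snf2h wildtype eyes. Ehf, Elf3, Tfcp2l1, Grhl1 and Trp63 have all Brg1 knockout points below the Brg1 wildtype points, and Klf4, Klf5 and Ovol1 do not.

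Elf3, an ETS factor of mucosal and surface epithelium related to Ehf, was dim in every group. Its only probe set, 1416916_at, read 3.55, 3.87 and 3.54 in Brg1 cKO eyes, against 5.40, 4.31 and 4.89 in wildtype eyes. The groups did not overlap, and the wildtype arrays spread more widely than the knockout arrays. The change of −1.21 ± 0.29 did not pass (adjusted p = 0.201 by limma), although it did in 1 fit over all 14 arrays (0.0218). In Snf2h cKO eyes Elf3 read 3.85, 4.30, 4.03 and 3.88, against 4.51, 4.23, 4.57 and 4.15 in wildtype eyes, a change of −0.35 ± 0.16 (adjusted p = 0.293 by limma) with knockout replicate 2 inside the wildtype range.

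Tfcp2l1, a CP2-type factor of epithelia such as kidney duct and of mouse pluripotent cells, fell in Brg1 cKO eyes on 1418091_at. The levels were 3.99, 5.67 and 4.96 in Brg1 cKO eyes, against 7.91, 7.67 and 7.24 in wildtype eyes. All knockout arrays were below all wildtype arrays, and knockout replicate 2 was the nearest to them. The change was −2.74 ± 0.42 (SE, adjusted p = 0.0478 by limma, n = 3 each). This call was close to the threshold and was lost when Brg1 cKO replicate 3 or any 1 wildtype array was left out (adjusted p up to 0.252), with 32 added to the intensities (0.15) and in 1 fit over all arrays (0.194).

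Tfcp2l1 also had the widest spread of the 8 genes among Snf2h wildtype arrays. On 1418091_at these read 6.14, 3.82, 6.87 and 7.97, and the Snf2h cKO arrays read 6.12, 6.27, 4.27 and 4.72. Wildtype replicate 2 was the lowest of all 8 arrays, and knockout replicate 2 also lay above wildtype replicate 1. The groups thus overlapped with or without wildtype replicate 2 (−0.85 ± 0.81 SE over all 8 arrays, adjusted p = 0.597 by limma). Leaving out 1 array gave changes between −1.65 (without wildtype replicate 2) and −0.26 (without wildtype replicate 4), none of which passed. With array weights the change was 0.23. The other Tfcp2l1 probe sets were at the bottom of the scale, with 1460714_at between 2.64 and 3.38 and 1460715_x_at between 2.58 and 4.46 over all 14 arrays. The suffix _x_at marks probes that may also bind other transcripts. Their changes in Brg1 cKO eyes were −0.03 ± 0.16 and −0.38 ± 0.22, and neither passed. In Snf2h cKO eyes 1460715_x_at read 2.64, 2.58, 2.68 and 3.11, against 2.86, 3.70, 3.97 and 4.46 in wildtype eyes, with knockout replicate 4 above the lowest wildtype array. The change of −0.99 ± 0.30 did not pass (adjusted p = 0.179 by limma), and it did without wildtype replicate 1. That of 1460714_at was −0.32 ± 0.16.

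Grhl1, a grainyhead factor that controls desmosomal genes in mouse skin, differed little. Its probe set 1424030_at read 6.67, 7.16 and 6.95 in Brg1 cKO eyes, against 8.03, 7.35 and 7.22 in wildtype eyes, and 6.12, 6.01, 6.02 and 5.63 in Snf2h cKO eyes, against 6.70, 5.44, 7.08 and 6.63 in wildtype eyes. The Brg1 groups did not overlap by a margin of 0.05, and Snf2h wildtype replicate 2 was again the lowest of its group. The changes were −0.60 ± 0.26 (adjusted p = 0.62 by limma) and −0.52 ± 0.32 (adjusted p = 0.411 by limma). The Snf2h change was −0.86 without wildtype replicate 2 (adjusted p = 0.133 by limma) and −0.31 without wildtype replicate 3, the array with skin markers (0.668).

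Promoter sequence from RefSeq (assembly GRCm38.p6, 250 bases before to 50 after the transcript start) was at hand for 4 of the 8 genes, namely Elf3, Tfcp2l1, Grhl1 and Klf4. Those of Tfcp2l1 and Elf3 are printed 5′ to 3′, because the first fell in Brg1 cKO eyes and the second was lower in all 3 knockout arrays. Capitals mark, on both strands, the core letters of ETS sites (GGAA) and of Krüppel-like sites (CACCC), the binding families of Ehf, Elf3, Klf4 and Klf5. The motifs share no bases here.
Tfcp2l1, chr1:118627695-118627994, plus strand: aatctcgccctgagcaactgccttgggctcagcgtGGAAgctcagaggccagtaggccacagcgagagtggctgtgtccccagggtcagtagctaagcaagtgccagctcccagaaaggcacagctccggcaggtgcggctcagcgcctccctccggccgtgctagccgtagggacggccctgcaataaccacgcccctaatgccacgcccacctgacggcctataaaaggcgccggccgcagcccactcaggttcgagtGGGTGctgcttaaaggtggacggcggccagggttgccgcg
Elf3, chr1:135258423-135258722, minus strand: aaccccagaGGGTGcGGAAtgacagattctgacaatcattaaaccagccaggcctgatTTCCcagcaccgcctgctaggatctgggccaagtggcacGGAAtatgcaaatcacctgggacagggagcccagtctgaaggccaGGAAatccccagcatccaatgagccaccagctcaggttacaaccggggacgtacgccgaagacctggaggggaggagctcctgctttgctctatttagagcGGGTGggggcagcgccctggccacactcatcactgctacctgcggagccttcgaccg
The Tfcp2l1 promoter held 1 GGAA and 1 CACCC, and the Elf3 promoter held 4 and 2. GGAA occurred in 96.0% and CACCC in 57.5% of all 32851 promoters of this length. Grhl1, also lower in all 3 knockout arrays, had 2 promoters from separate starts and is given by counts alone, with 1 and 7 GGAA and 0 and 2 CACCC. The grainyhead site AACCGGTT occurred in none of these, and in 0.1% of all promoters. A match is a description of the letters in this window.

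Trp63 was read by 3 probe sets that disagreed. The brightest, 1418158_at, read 6.28, 7.09 and 8.29 in Brg1 cKO eyes, against 9.21, 9.17 and 9.10 in Brg1 wildtype eyes. All 3 knockout arrays were lower, and they spread over 2.01 log2 units while the wildtype arrays lay within 0.11. The change of −1.94 ± 0.46 did not pass (adjusted p = 0.201 by limma). It passed without Brg1 cKO replicate 3 (−2.48, adjusted p = 0.0457 by limma) and in 1 fit over all 14 arrays (0.0254).

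In the Snf2h experiment the same Trp63 probe set came nearest to the threshold of all 17. It read 5.93, 5.78, 5.24 and 4.80 in Snf2h cKO eyes, against 7.07, 7.04, 6.70 and 6.80 in Snf2h wildtype eyes. The groups lay 0.77 apart, and the wildtype array with skin markers, replicate 3, was the lowest of its group. The change was −1.47 ± 0.24 (SE, adjusted p = 0.0752 by limma, n = 4 each), or 36.1% of wildtype. It was −1.61 with the near-identical knockout pair averaged (adjusted p = 0.214 by limma) and −1.53 without wildtype replicate 3 (0.107), and it passed with array weights (−1.25, 0.0391).

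The other Trp63 probe sets were dim and varied little. Over all 14 arrays 1451876_a_at lay between 2.10 and 2.60 and 1452027_a_at between 3.39 and 4.55. Their log2 differences were 0.07 ± 0.17 and 0.26 ± 0.18 in Brg1 cKO eyes and 0.02 ± 0.16 and 0.11 ± 0.18 in Snf2h cKO eyes, and none of these passed. Which Trp63 splice forms each probe set reads is not given in the sources used here. Levels of different probe sets are not comparable, so the disagreement is one of changes. Without detection calls, changes of sets this dim are compressed by an unknown amount, so their small size does not show unchanged transcripts.

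**Figure D3:**
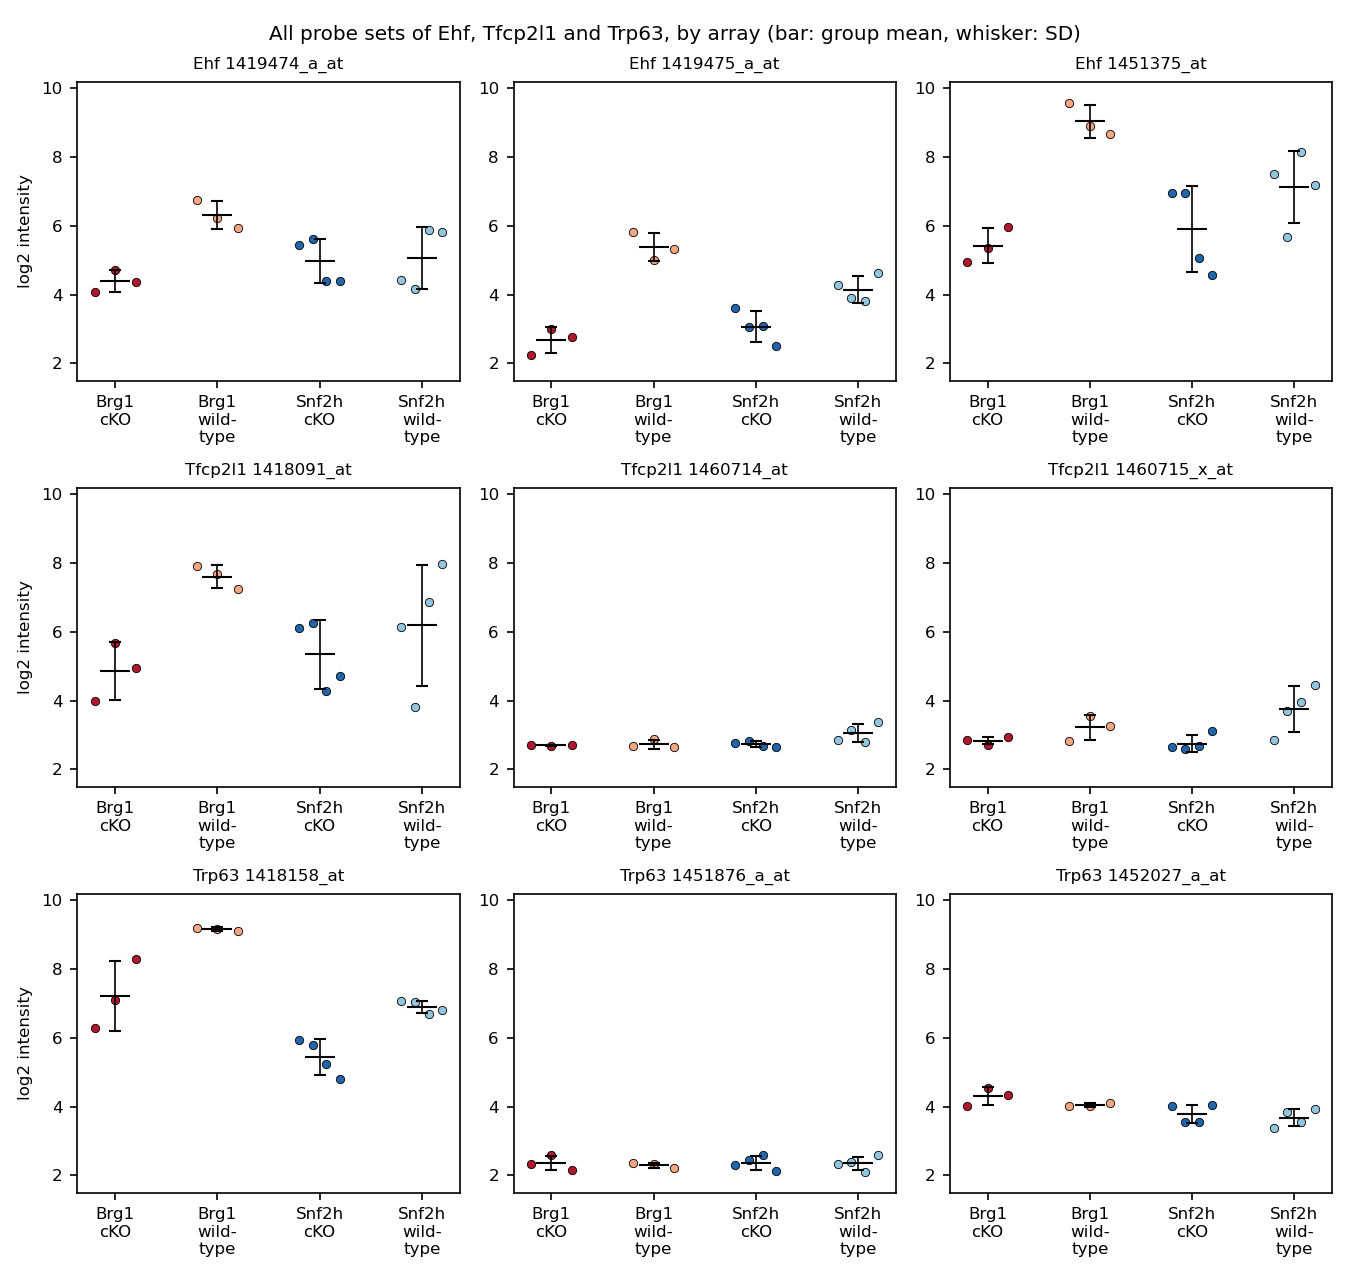
Log2 intensity (y axis, 1 scale in all panels) of the 3 probe sets each of Ehf, Tfcp2l1 and Trp63 by array, with the group mean as a bar and the SD as a whisker. Ehf is lower in all Brg1 knockout arrays on every probe set, while Tfcp2l1 and Trp63 each have 1 probe set with lower Brg1 knockout values and 2 that lie between 2.10 and 4.55.

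Klf4 and Klf5, the Krüppel-like factors of cornea and conjunctiva, gave no call in either knockout. Klf4 1417395_at read 7.16, 8.60 and 8.46 in Brg1 cKO eyes, against 8.43, 8.14 and 9.02 in wildtype eyes (−0.46 ± 0.42 SE, adjusted p = 0.833 by limma). Brg1 cKO replicate 1 alone lay below the wildtype arrays, and without it the change was −0.00. On the other Klf4 probe set, 1417394_at, Snf2h cKO eyes read 6.29, 6.49, 6.86 and 6.70, against 7.16, 7.86, 7.37 and 7.00 in wildtype eyes. These groups did not overlap, and the change of −0.76 ± 0.21 did not pass (adjusted p = 0.152 by limma, 0.347 with the near-identical pair averaged), although it did with array weights (−0.96, 0.0443). In Brg1 cKO eyes 1417394_at read 6.63, 7.87 and 7.62, against 7.47, 8.11 and 8.67 in wildtype eyes, with overlap (−0.71 ± 0.41 SE, adjusted p = 0.742 by limma). The Snf2h change of 1417395_at was −0.27 ± 0.15.

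Klf5 1451021_a_at read 5.42, 6.54 and 6.58 in Brg1 cKO eyes, against 6.75, 5.97 and 6.86 in wildtype eyes, with only replicate 1 of the knockout low (−0.35 ± 0.38 SE, adjusted p = 0.869 by limma). In Snf2h cKO eyes it read 7.54, 7.60, 6.84 and 6.81, against 7.69, 6.44, 8.15 and 8.21 in wildtype eyes, and the groups overlapped (−0.42 ± 0.39 SE, adjusted p = 0.581 by limma). The dim probe set 1451739_at read 3.03, 2.90, 2.93 and 2.72 in Snf2h cKO eyes, against 3.05, 4.50, 4.02 and 4.88 in wildtype eyes. The knockout arrays were all lower, by 0.02 at the closest, and the change of −1.22 ± 0.34 did not pass (adjusted p = 0.152 by limma), although it did without wildtype replicate 1 (−1.58, 0.0139). Its change in Brg1 cKO eyes was −0.95 ± 0.40 (adjusted p = 0.611 by limma).

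Ovol1 had no probe set that was lower in all knockout arrays of either experiment. Its probe set 1419052_at read 4.28, 4.91 and 4.73 in Brg1 cKO eyes, against 4.41, 3.96 and 4.01 in wildtype eyes (0.51 ± 0.23 SE, adjusted p = 0.627 by limma), and 3.93, 4.28, 4.51 and 3.92 in Snf2h cKO eyes, against 3.62, 3.45, 4.56 and 3.26 in wildtype eyes (0.44 ± 0.28 SE, adjusted p = 0.429 by limma). The groups overlapped in both experiments. The other probe set, 1419051_at, differed by 0.01 ± 0.29 in the Brg1 and −0.08 ± 0.26 in the Snf2h experiment, and neither passed. Both were dim in all 4 groups, with means between 3.72 and 4.64.

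The knockout effects were also set against each other in 1 fit of all 14 arrays, as the Brg1 change minus the Snf2h change. Of the 17 probe sets 0 passed, beside 0.659% of all probe sets, and 4 were more negative in the Brg1 experiment at an unadjusted p under 0.05, beside 6.43% of all probe sets. Those 4 were the 3 Ehf probe sets and Elf3. Ehf 1451375_at differed by −2.39 ± 0.88 (SE, adjusted p = 0.28 by limma), Ehf 1419475_a_at by −1.63 ± 0.41 (0.112) and Elf3 by −0.86 ± 0.32 (0.28). Ehf 1419474_a_at differed by −1.81 ± 0.62 (adjusted p = 0.24 by limma). Tfcp2l1 1418091_at, not among those 4, differed by −1.88 ± 1.09 (adjusted p = 0.502 by limma). The fall of Ehf and Tfcp2l1 in Brg1 cKO eyes was therefore not shown to differ from the change in Snf2h cKO eyes. For Trp63 1418158_at the difference between the effects was −0.47 ± 0.52 (adjusted p = 0.747 by limma).

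Side by side and untested, the wildtype groups differed in level for several of these genes. Ehf 1451375_at averaged 9.04 ± 0.48 (SD, n = 3) in Brg1 wildtype and 7.13 ± 1.04 (SD, n = 4) in Snf2h wildtype eyes. Trp63 1418158_at averaged 9.16 ± 0.06 in Brg1 wildtype and 6.90 ± 0.18 in Snf2h wildtype eyes. Klf5 1451021_a_at ran the other way, with 6.53 ± 0.49 in Brg1 wildtype and 7.62 ± 0.82 in Snf2h wildtype eyes. In order of mean level, Ehf 1451375_at ran Brg1 wildtype, Snf2h wildtype, Snf2h cKO, Brg1 cKO, and only the step between the wildtype groups was free of overlap. Trp63 1418158_at ran Brg1 wildtype, Brg1 cKO, Snf2h wildtype, Snf2h cKO, where the first and the last step were free of overlap and the middle step was not.

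Some members were low together in single arrays. Snf2h wildtype replicate 2 differed from the mean of its group by −1.44 for Ehf 1451375_at, −2.38 for Tfcp2l1 1418091_at, −1.03 for Grhl1 and −1.18 for Klf5 1451021_a_at, and by −0.13 for Elf3, 0.13 for Trp63 1418158_at and 0.21 for Klf4 1417395_at. It was the highest of its group on both Klf4 probe sets, so only some of the 8 genes were low there. The mean over 11 surface epithelium markers was 7.50 in that array, against 8.07 to 8.69 in the other Snf2h wildtype arrays. In the Brg1 experiment, cKO replicate 1 was the lowest of its group on the brightest probe sets of Ehf, Tfcp2l1, Grhl1, Trp63, Klf4, Klf5 and Ovol1, and not on that of Elf3. It also had the lowest marker mean of its group (7.59, against 8.87 and 8.28). Over the 14 arrays, after subtracting the mean of each experiment, the brightest Ehf probe set correlated with those of Tfcp2l1 (r = 0.88), Elf3 (0.83), Trp63 (0.83), Grhl1 (0.78), Klf5 (0.63), Klf4 (0.40) and Ovol1 (−0.27). These values describe 14 arrays that share 4 groups. Within a gene, the Ehf probe sets correlated at 0.76 to 0.89 those of Klf4 at 0.78, those of Ovol1 at 0.51 and those of Klf5 at 0.29. Tfcp2l1 1418091_at correlated at 0.31 and 0.41 with its other probe sets, and Trp63 1418158_at correlated at −0.17 and −0.31 with its other probe sets.

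**Figure D4:**
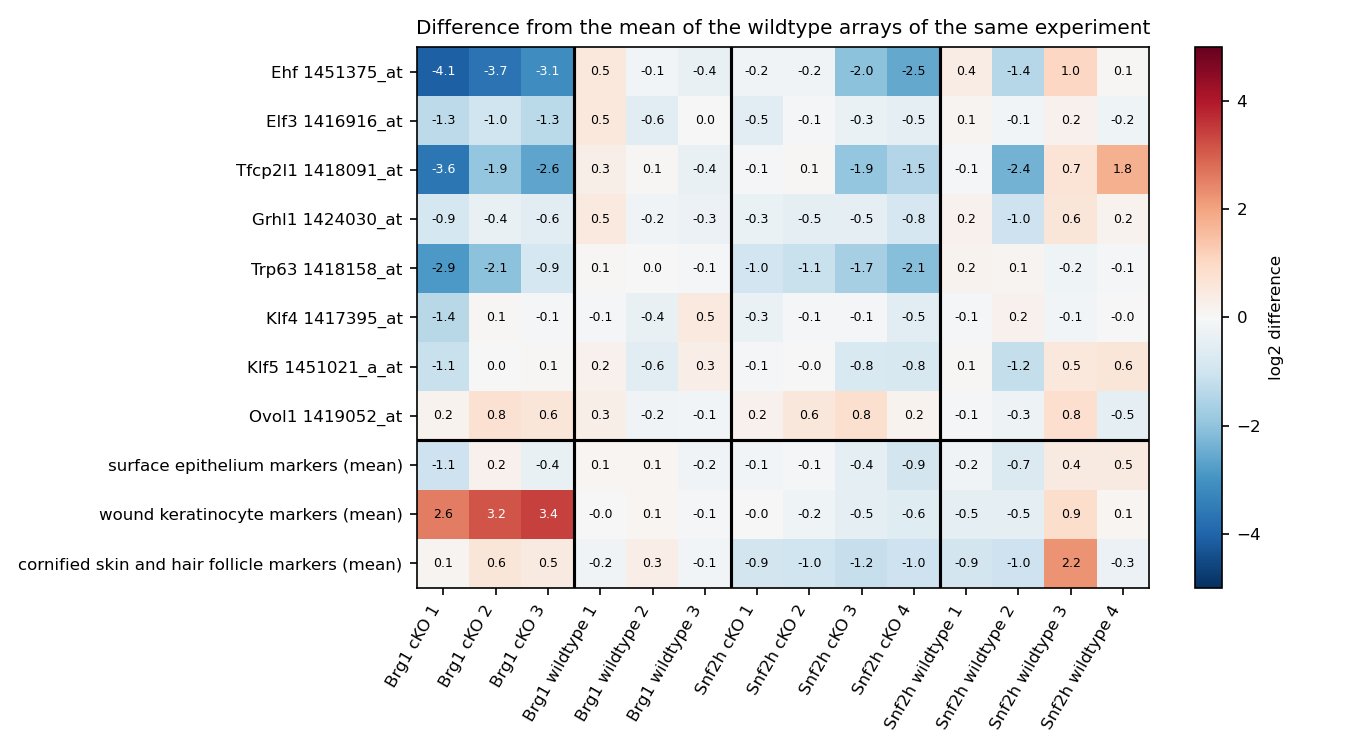
Log2 difference of each array (columns) from the mean of the wildtype arrays of its own experiment, for the brightest probe set of each of the 8 genes (upper rows) and the mean of 3 marker lists (lower rows), on a colour scale where blue is lower. Snf2h wildtype replicate 2 is low for Ehf, Tfcp2l1, Grhl1 and Klf5. The 3 Brg1 knockout arrays lie below the Brg1 wildtype arrays for Ehf, Elf3, Tfcp2l1, Grhl1 and Trp63 and above them for the wound keratinocyte markers.

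The probe sets of other genes whose pattern over the 14 centred arrays was most like that of a member were found by the same correlation. For Ehf they were Slc39a8, a metal ion transporter (r = 0.95), and Mal, a membrane raft protein of epithelia (0.94). For Tfcp2l1 they were Trim29, a tripartite motif protein of squamous epithelium (0.94), and Enpp3 (0.94), and for Grhl1 they were Pof1b (0.95) and Esrp1, an epithelial splicing regulator (0.94). For Trp63 they were Elp4 (0.93) and Edar, the ectodysplasin receptor (0.91), and for Elf3 they were Vdr, the vitamin D receptor (0.92), and Adh7, an alcohol dehydrogenase of surface epithelium (0.90). Klf5 was most like Vcan (0.94) and Osr2 (0.93), Klf4 like Zfp568 (0.87) and Mcpt4 (0.84), and Ovol1 like Cipc (0.88) and Gm1976 (0.83). Each r was picked as one of the highest of many probe sets over 14 arrays. How high the best r of unrelated genes would be was not tested.

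Relatives of these genes in the ETS, grainyhead, Krüppel-like, Ovo-like and p53 families gave 1 call, in Elf5. Of 46 probe sets of 22 measured relatives, 0 rose and 1 fell in Brg1 cKO eyes (median −0.27), beside 0.349% and 0.243% of all probe sets. In Snf2h cKO eyes 0 rose and 0 fell by limma (median −0.10), beside 0.00884% and 0.00442%. At an unadjusted p under 0.05 the relatives had 0 higher and 6 lower in the Brg1 experiment, beside 4.33% and 3.73% of all probe sets. In the Snf2h experiment they had 11 higher and 3 lower, beside 9.8% and 7.89%. The 1 that fell was Elf5 1419555_at, an ETS factor of the same subfamily as Ehf and Elf3. It averaged 3.04 ± 0.48 in Brg1 cKO eyes and 5.58 ± 0.58 in wildtype eyes (SD, n = 3 each), a 5.82-fold fall (adjusted p = 0.0359 by limma). Its other probe set, 1419556_at, was also lower in all 3 knockout arrays (−2.16 ± 0.47) and did not pass (adjusted p = 0.16 by limma). Grhl2 1427046_at, chosen after its values were seen, gave −1.18 ± 0.42 (adjusted p = 0.513 by limma), with its other 3 probe sets between −0.59 and 0.05.

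Other regulators of surface epithelium, such as Tfap2a, Gata3 and Pax6, gave no call. Of 27 probe sets of 14 measured genes 0 passed by limma in either knockout, while 25 had negative changes in Brg1 cKO eyes (median −0.34) and 17 in Snf2h cKO eyes (median −0.14), beside 51.6% and 54.7% of all probe sets. At an unadjusted p under 0.05 there were 0 higher and 6 lower in the Brg1 experiment, beside 4.33% and 3.73% of all probe sets, and 5 higher and 4 lower in the Snf2h experiment, beside 9.8% and 7.89%. In the Brg1 experiment 7 of the 27 had all knockout arrays below all wildtype arrays, beside 6.37% of all probe sets.

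Genes of basal and corneal epithelium gave 2 calls in Brg1 cKO eyes. Of 46 probe sets of 31 measured genes 0 rose and 2 fell (median −0.29), beside 0.349% and 0.243% of all probe sets, and 0 rose and 0 fell by limma in Snf2h cKO eyes (median −0.26). At an unadjusted p under 0.05 there were 2 higher and 16 lower in the Brg1 experiment, beside 4.33% and 3.73% of all probe sets, and 2 higher and 3 lower in the Snf2h experiment, beside 9.8% and 7.89%. In the Brg1 experiment 17 of the 46 had all knockout arrays below all wildtype arrays and 3 had them above, beside 6.37% and 7.16% of all probe sets. Both that fell belong to Krt12, the keratin of differentiated corneal epithelium. Krt12 1419230_at averaged 5.06 ± 0.48 in Brg1 cKO eyes and 9.16 ± 0.33 in wildtype eyes (SD, n = 3 each), a 17.2-fold fall (adjusted p = 0.0026 by limma). In Snf2h cKO eyes it averaged 9.29 ± 0.56, and 8.61 ± 0.30 in wildtype eyes (adjusted p = 0.251 by limma), and the effects on Krt12 differed by −4.78 ± 0.43 between the knockouts (adjusted p = 6.68e-05 by limma). Of the basal keratins, chosen after their values were seen, Krt5 1424096_at gave −0.19 ± 0.26 (adjusted p = 0.897 by limma) and Krt14 1423935_x_at 0.98 ± 0.29 (0.347) in Brg1 cKO eyes. All 3 knockout arrays were above the wildtype range on that Krt14 probe set and on 1460347_at (1.04 ± 0.27, adjusted p = 0.277 by limma). Krt14 1455573_at gave 0.04 ± 0.24, with overlap. Krt15 1422667_at, also chosen after its values were seen and a keratin of basal and limbal cells, gave −3.01 ± 0.56 (adjusted p = 0.0988 by limma).

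Of 9 lists of cell type markers, 4 had mean levels that did not overlap between the Brg1 groups, and 1 did so in the Snf2h experiment. Among single probe sets, all Brg1 cKO arrays lay below all wildtype arrays in 6.37% and above them in 7.16%. All Snf2h cKO arrays lay below all wildtype arrays in 4.22%. These shares are for single probe sets, and none was computed for list means. Beside the counts below, 0.349% of all probe sets rose, 0.243% fell and 51.6% had negative changes in the Brg1 experiment. In the Snf2h experiment 54.7% of all probe sets had negative changes. The mean over 11 surface epithelium markers was 7.59 to 8.87 in Brg1 cKO eyes and 8.46 to 8.74 in wildtype eyes, and 8 of the 11 had negative changes, none past the threshold. Over 10 wound keratinocyte markers it was 7.38 to 8.22 in Brg1 cKO eyes and 4.75 to 4.90 in wildtype eyes, where 6 of 10 rose. Over 10 neutrophil markers it was 5.18 to 6.79 in Brg1 cKO eyes and 4.02 to 4.55 in wildtype eyes, where 2 of 10 rose. Those 2 were S100a8 (5.01 ± 0.54) and S100a9 (4.48 ± 0.42), while 3 of 10, Ltf, Mpo and Elane, had negative changes. Over 10 lens markers it was 8.04 to 10.18 in Brg1 cKO eyes and 11.29 to 11.51 in wildtype eyes, where 2 of 10 fell. Over 6 goblet cell markers it was 3.24 to 3.52 in Brg1 cKO eyes and 3.63 to 3.98 in wildtype eyes, where 1 of 6 fell. The 1 that fell was Agr2 (−2.01 ± 0.31). The other goblet cell markers changed by −0.34 to 0.18 and were dim, between 2.70 and 4.42 in the Brg1 experiment. The ranges overlapped for markers of surface epithelium, cornified skin (4.50 to 4.98 in Brg1 cKO and 4.19 to 4.68 in wildtype eyes, where 1 of 16 rose), macrophages (7.12 to 8.08 in Brg1 cKO and 6.82 to 7.38 in wildtype eyes), corneal stroma and retina. In the Snf2h experiment the surface epithelium markers averaged 7.32 to 8.17 in cKO eyes and 7.50 to 8.69 in wildtype eyes, and the cornified skin markers 4.24 to 4.48 in cKO eyes and 4.39 to 7.66 in wildtype eyes. Over 9 retina markers the mean was 9.28 to 9.64 in Snf2h cKO eyes and 8.74 to 9.09 in wildtype eyes, higher in every knockout array, with a negative change in 1 of 9 and none past the threshold. The part of any of these cells in the changes of the 8 genes was not tested.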

How the data were processed

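The deposited values were probe set intensities on a linear scale. The submitters' processing notes name RMA without a version. Nothing records whether the 14 arrays were normalised in 1 run. No filter or further scaling was applied. The log2 of each intensity was taken, and 64 control probe sets were left out of 22690. The annotation gave 1 gene to 20380 of the others, several to 691 and none to 1555, and the RefSeq table changed 0 symbols. It names no genome build, so positions are given only for RefSeq promoters.

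Groups were compared with limma 3.58.1 (lmFit, eBayes) in R 4.3.3, two-sided, with p adjusted by Benjamini-Hochberg over 22626 probe sets. The difference between the knockout effects was a contrast over all 14 arrays. The number of arrays limits the precision. The fits were tested on simulated data. The members and lists were chosen with earlier results of these data known, so their counts are descriptions. Named beyond the 8 genes were list genes past the threshold and the 2 probe sets most correlated with each gene, and others are marked where named. Alternatives were 2 quantile normalisations, an added intensity of 32, a filter at the median level, 1 probe set per gene, trended robust eBayes, array weights, a replicate block, averaging of a near-identical pair, 1 fit over all arrays and leaving out each array. Of the genes, 4 had no promoter sequence used here.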

Additional observations from a re-analysis of the deposited data

Results flagged for a closer look

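In groups of 4 arrays, 34 sets of values were screened for an array far from the others, and 1 was found, where chance flags about 1 in 20. Ovol1 1419051_at read 4.17 in Snf2h cKO replicate 3, with the other 3 knockout arrays between 4.02 and 4.04, and the whole range of the group was narrower than that of any other group for this probe set. Groups of 3 arrays were not screened.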

How the results depend on the processing

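In the Brg1 experiment 4 probe sets of the 8 genes passed, and the count was also 4 with array weights, both quantile normalisations, trended eBayes and 1 fit over all arrays, the last with Elf3 and Trp63 1418158_at in place of Tfcp2l1 and Ehf 1419474_a_at. It was 2 with 1 probe set per gene (of 8 tested), 1 with the filter at the median level (of 5 tested), 0 with 32 added to the intensities, which damps dim values, and 0 with the replicate block. Leaving out 1 array gave 1 to 4, and Ehf 1451375_at passed each time. In the Snf2h experiment the count of 0 became 2 with array weights (Trp63 1418158_at and Klf4 1417394_at) and was 0 to 2 when 1 array was left out, the 2 being Klf5 1451739_at and Tfcp2l1 1460715_x_at without wildtype replicate 1. The interaction count was 0 under every alternative run.

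The replicate block took all calls of these genes, and calls over all probe sets in the Brg1 experiment went to 42 with the block, against 134 without it. The labels give the number no meaning. Same-numbered arrays correlated at 0.064 to 0.129 (Brg1) and −0.228 to 0.071 (Snf2h) in their deviations. Knockout and wildtype arrays of different number correlated at −0.318 to 0.237 (Brg1) and −0.227 to 0.282 (Snf2h). No knockout array correlated best with the wildtype array of its own number. Over all probe sets the Brg1 calls were also 20 with 32 added, 25 with the filter, 294 in 1 fit over all arrays and 26 to 204 when 1 array was left out.

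Signs turned only for changes that had not passed. With array weights the Snf2h change was 0.60 for Ehf 1419474_a_at, 0.23 for Tfcp2l1 1418091_at and 0.07 for Klf5 1451021_a_at. With either quantile normalisation it was 0.03 for Ovol1 1419051_at. The Brg1 change of Tfcp2l1 1460714_at was 0.00 when all arrays were quantile normalised together and 0.01 when each experiment was done alone. Leaving out 1 array gave Snf2h changes of −0.40 to 0.17 (Ehf 1419474_a_at), −0.06 to 0.10 (Trp63 1451876_a_at) and −0.34 to 0.14 (Ovol1 1419051_at). It gave Brg1 changes of −0.08 to 0.04 (Tfcp2l1 1460714_at), −0.04 to 0.17 (Trp63 1451876_a_at), −0.63 to 0.03 (Klf5 1451021_a_at) and −0.24 to 0.21 (Ovol1 1419051_at). The cause of these turns was not tested.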
